A study of Mus musculus with 576 samples.

Results

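The 41 genes described here copy DNA, or are known for transcripts that accumulate as a cell enters and passes through S phase. They were given as a list of symbols, and the rule of that list uses no measured value. All 41 were listed in each of the 3 count tables, which hold 36658 gene identifiers, 35866 of them with a symbol. By role, 11 genes load or form the replicative helicase or, for Gmnn, block its loading. A further 8 encode polymerase, primase, clamp and clamp-loader proteins, with the flap endonuclease Fen1 and the Pcna-binding protein Pclaf placed among them. Of the rest, 3 make deoxynucleotides, 8 act on chromatin or histones and 10 act in fork protection, checkpoint signalling, repair or protein degradation. The last, E2f8, is a transcription factor.

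Mouse embryos at embryonic day 12.5 (C57BL/6J, both sexes mixed, no treatment) gave the dorsal pancreata from which the cells were sorted, and messenger RNA was read by Smart-seq2, which sequences full-length cDNA of cells sorted into the wells of plates. In the Nkx2.5-Cre;mTmG and Nkx3.2-Cre;mTmG lines, Cre is made from the Nkx2.5 or the Nkx3.2 locus and switches a Rosa26 reporter from membrane tdTomato to membrane GFP, so GFP marks cells that expressed the driver gene at any earlier time, and their descendants. The third line, Prox1-GFP, carries a bacterial artificial chromosome transgene with EGFP under Prox1 regulatory sequence and no Cre, so GFP follows that promoter. GFP-positive cells of each line filled 2 plates of 96 wells (A and B), which gave 576 cells in all.

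The labels name no embryo for any cell. Each line therefore counts as 1 sample, cells and plates are not replicates, and no statistical test was possible between lines or states. Below, a level is the summed count of a group of cells in CPM (counts per 1e+06 counts of the same cells), the spread is given by the 2 plates and by the range over cells, and a gene is called higher or lower only where the pooled ratio passed 1.5-fold and every pair of plates gave the same direction, among genes with a mean of at least 10 CPM over the groups compared. Each line was sorted on plates of its own, so plate and line cannot be told apart in any comparison between lines, and the library numbers of the Prox1 line also lie apart from those of the Nkx lines.

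After filtering, 549 of 576 cells were kept (90 and 83 on the Nkx2.5 plates, 95 and 96 on the Nkx3.2 plates, 93 and 92 on the Prox1 plates), with 224814 to 1512736 estimated counts per cell and medians of 1056674, 896115 and 808006 in the 3 lines. Clusters built without the 41 genes were named from marker genes as mesenchymal-like, mesothelial-like, endocrine-like or other epithelial-like, and these names are given from here on without the ending. All kept cells of the Nkx2.5 line fell into mesenchymal clusters. Scored cell by cell with the same markers, 5 of them were mesothelial. This group held 3 of 7 mesothelial markers at 10 CPM or more (Wt1 at 91.2, Upk3b at 22.4 and Upk1b at 15.5 CPM). The Nkx3.2 line gave 92 and 76 mesenchymal cells on plates A and B and 23 mesothelial cells, and the Prox1 line 77 mesenchymal, 88 other epithelial and 19 endocrine cells. A further Prox1 cell with at least 3 immune markers was left out after the data had been seen. The endocrine cells held all 13 endocrine markers at 10 CPM or more (Gcg, which encodes glucagon, at 42543 CPM) and 9 of 10 epithelial markers, the other epithelial cells all 10 epithelial markers (Pdx1 at 136.1 CPM, Sox9 at 698 CPM), and the mesothelial cells 6 of 7 of theirs, with Msln at 0.869 CPM. The mesenchymal cells held 8 of 10 mesenchymal markers in each line (Twist1 and Foxf1 lay under 10 CPM) and also mural cell markers, at 481 to 589 CPM summed.

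Replication starts at origins, where the origin recognition complex, Cdc6 and Cdt1 load the Mcm helicase in G1, a step that geminin (Gmnn) blocks later in the cycle. At the start of S phase Cdc45 and the GINS complex join Mcm to form the active helicase, DNA polymerase alpha and primase lay down primers, and the clamp Pcna, loaded by replication factor C, holds the other polymerases on the template. Many of these genes are transcribed from promoters bound by E2F factors, which are released when cyclin-dependent kinases inactivate the retinoblastoma proteins. In the embryonic pancreas progenitors of the epithelium and the mesenchyme divide, whereas endocrine precursors that express Neurog3 leave the cell cycle as they differentiate.

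Promoter sequences are shown first, because E2F words were more frequent in the promoters of these genes than in those of all genes. RefSeq promoter windows (GRCm38.p6, from 250 bases before to 50 bases after the transcription start) were matched for 32 of the 41 genes. The words TTTCCCGC, TTTCGCGC, TTTGCCGC and TTTGGCGC, searched on both strands and together called E2F words, were found in 14 of the 32 (43.8%) and in 2.6% of 27025 genes in the same table. The word CCAAT, searched on both strands, was found in 23 (71.9%) against 41.1% of all genes. The words TTTGAA and TTCGAA, known from genes expressed late in the cycle, were found in 7 (21.9%) against 21.7%. The 14 genes with an E2F word were Mcm3, Mcm5, Mcm6, Mcm7, Cdc6, Pola1, Pold3, Pclaf, Uhrf1, Hells, Cdca7, Ubr7, Clspn and Dtl. A match describes the letters and is not evidence that a factor binds there.

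Stretches of 130 bases are given below for 4 genes, 5′ to 3′ on the gene's strand, with E2F words and CCAAT (or its reverse complement ATTGG) in capitals. Mcm6 (chr1:128359706-128359835, minus strand, the bases from -130 to -1 before the start) held 3 E2F words, of which the first pair overlap, and 2 CCAAT words. Mcm5 (chr8:75109309-75109438, plus strand, -200 to -71) held 2 overlapping E2F words and 1 CCAAT word. Rrm2 (chr12:24708124-24708253, plus strand, -130 to -1) and Cdc45 (chr16:18811973-18812102, minus strand, -130 to -1) held 1 CCAAT word and no E2F word each. Mcm5 and Mcm6 are shown for their E2F words, Rrm2 as a gene without them that followed the same pattern in the cells, and Cdc45 because its level went the other way.
Mcm6: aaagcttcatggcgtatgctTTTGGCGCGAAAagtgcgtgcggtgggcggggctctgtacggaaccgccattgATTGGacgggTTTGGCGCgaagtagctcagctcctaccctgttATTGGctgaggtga
Mcm5: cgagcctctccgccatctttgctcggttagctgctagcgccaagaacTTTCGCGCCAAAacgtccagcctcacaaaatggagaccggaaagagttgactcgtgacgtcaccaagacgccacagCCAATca
Rrm2: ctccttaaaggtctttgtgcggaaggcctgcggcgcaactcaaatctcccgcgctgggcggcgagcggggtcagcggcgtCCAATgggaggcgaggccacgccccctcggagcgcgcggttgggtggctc
Cdc45: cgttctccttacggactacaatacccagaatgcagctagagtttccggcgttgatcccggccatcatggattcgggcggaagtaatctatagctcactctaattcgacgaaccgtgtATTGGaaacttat

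Shorter windows around the E2F word (capitals, in the gene's own orientation) are given for 5 genes that were lower in endocrine cells and for 2 that were not called there, Pola1 and Ubr7. They lie at chr2:72476137-72476166 (plus strand, Cdca7), chr17:56304117-56304146 (plus, Uhrf1), chr11:98908002-98908031 (plus, Cdc6), chr19:38930917-38930946 (plus, Hells), chr1:191575534-191575563 (minus, Dtl), chrX:93632275-93632304 (minus, Pola1) and chr12:102757968-102757997 (plus, Ubr7).
Cdca7: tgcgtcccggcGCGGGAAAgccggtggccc
Uhrf1: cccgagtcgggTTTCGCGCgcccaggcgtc
Cdc6: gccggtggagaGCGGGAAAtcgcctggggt
Hells: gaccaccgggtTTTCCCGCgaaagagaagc
Dtl: cgtgacgtcagTTTGGCGCggagtttggcg
Pola1: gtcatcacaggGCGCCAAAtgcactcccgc
Ubr7: cggcggccactTTTCCCGCctcctcctggg

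The endocrine cells held the 41 genes at a far lower summed level than any other group, and the other 5 groups lay close to each other. The summed level was 6104 CPM in Nkx2.5 mesenchyme (6111 on plate A and 6095 on plate B), 6473 CPM in Nkx3.2 mesenchyme (6661 and 6181), 5910 CPM in Prox1 mesenchyme (5586 and 6130) and 6192 CPM in the other epithelial cells (6308 and 6060). It was 5138 CPM in mesothelial cells, where plate A, with 3 cells, gave 7523 CPM and plate B, with 20 cells, 4606 CPM. In the endocrine cells it was 1507 CPM (1492 and 1518), with a 95% Poisson interval of 1488 to 1526 that covers counting error alone. The Smart-seq2 reads carry no molecular identifiers, so copies made by amplification are counted and such intervals are too narrow.

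Single cells within every group differed by more than the groups did. In Nkx2.5 mesenchyme the lowest cell held 346, the median cell 5015 and the highest 22064 CPM, and in Nkx3.2 mesenchyme these were 991, 4675 and 18041 CPM. Prox1 mesenchyme ran from 1189 through 4656 to 20924 CPM, the other epithelial cells from 1288 through 4307 to 14668 CPM, and the mesothelial cells from 1918 through 3845 to 12247 CPM. Endocrine cells ran from 480 through 1334 to 6501 CPM, so their range overlapped that of every other group, with a median under the lowest of the other medians.

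**Figure D1:**
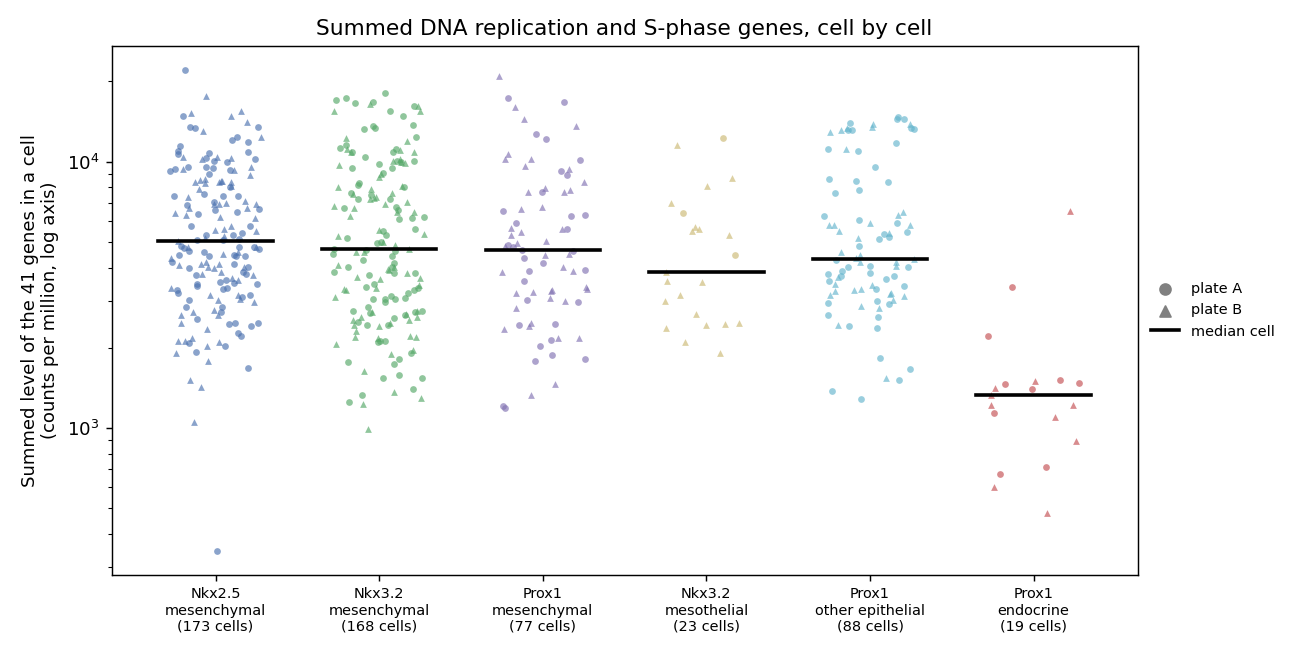
Summed level of the 41 genes in each cell (CPM, vertical log axis) by line and state (horizontal axis), with 1 point per cell, circles for plate A, triangles for plate B and a bar at the median cell. The median endocrine cell lies at 1334 CPM, and the medians of the other 5 groups lie between 3845 and 5015 CPM.

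Detection at a fixed depth also set the endocrine cells apart. Each cell was thinned to 200000 counts and a gene was scored as detected with at least 1 count. At least 21 of the 41 genes were detected in 80.7% of the other epithelial cells (71 of 88, exact binomial 95% interval 70.9 to 88.3%), in 73.8% of Nkx3.2 mesenchymal cells (66.5 to 80.3%), in 69.6% of mesothelial cells (47.1 to 86.8%), in 57.1% of Prox1 mesenchymal cells (45.4 to 68.4%) and in 50.9% of Nkx2.5 mesenchymal cells (43.2 to 58.5%). In the endocrine cells the share was 10.5% (2 of 19, 1.30 to 33.1%). Without thinning the shares were 87.5%, 80.95%, 78.3%, 72.7%, 64.7% and 31.6% in the same order. Cells within 2 genes of the limit numbered 10, 28, 3, 17, 26 and 1. Neighbours in this order had overlapping intervals, except Nkx2.5 mesenchyme and the endocrine cells. The intervals count cells of 1 sample per line. Per cell, the number of the 41 genes detected also followed the number of all genes detected. Spearman's rho ran from 0.51 to 0.72 across the cells of a group. The median number of all genes detected was 5839 in Nkx2.5, 6418 in Prox1 and 7314 in Nkx3.2 mesenchyme. It was 7614 in other epithelial, 7776 in mesothelial and 8104 in endocrine cells. The part of this in the order of the shares was not tested.

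Levels between genes were compared per kilobase of exon. Pcna was first of the 41 in the mesenchyme of every line and in the other epithelial cells, and Mcm7 was first in mesothelial cells. In endocrine cells the order changed, and Cdc45, Slbp (the histone mRNA stem-loop binding protein), Tipin (a fork protection protein), Gins2 and Pcna led it. Mcm6, a helicase subunit, stood at ranks 3 to 5 per kilobase in the 5 other groups and at rank 21 in endocrine cells.

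**Figure D2:**
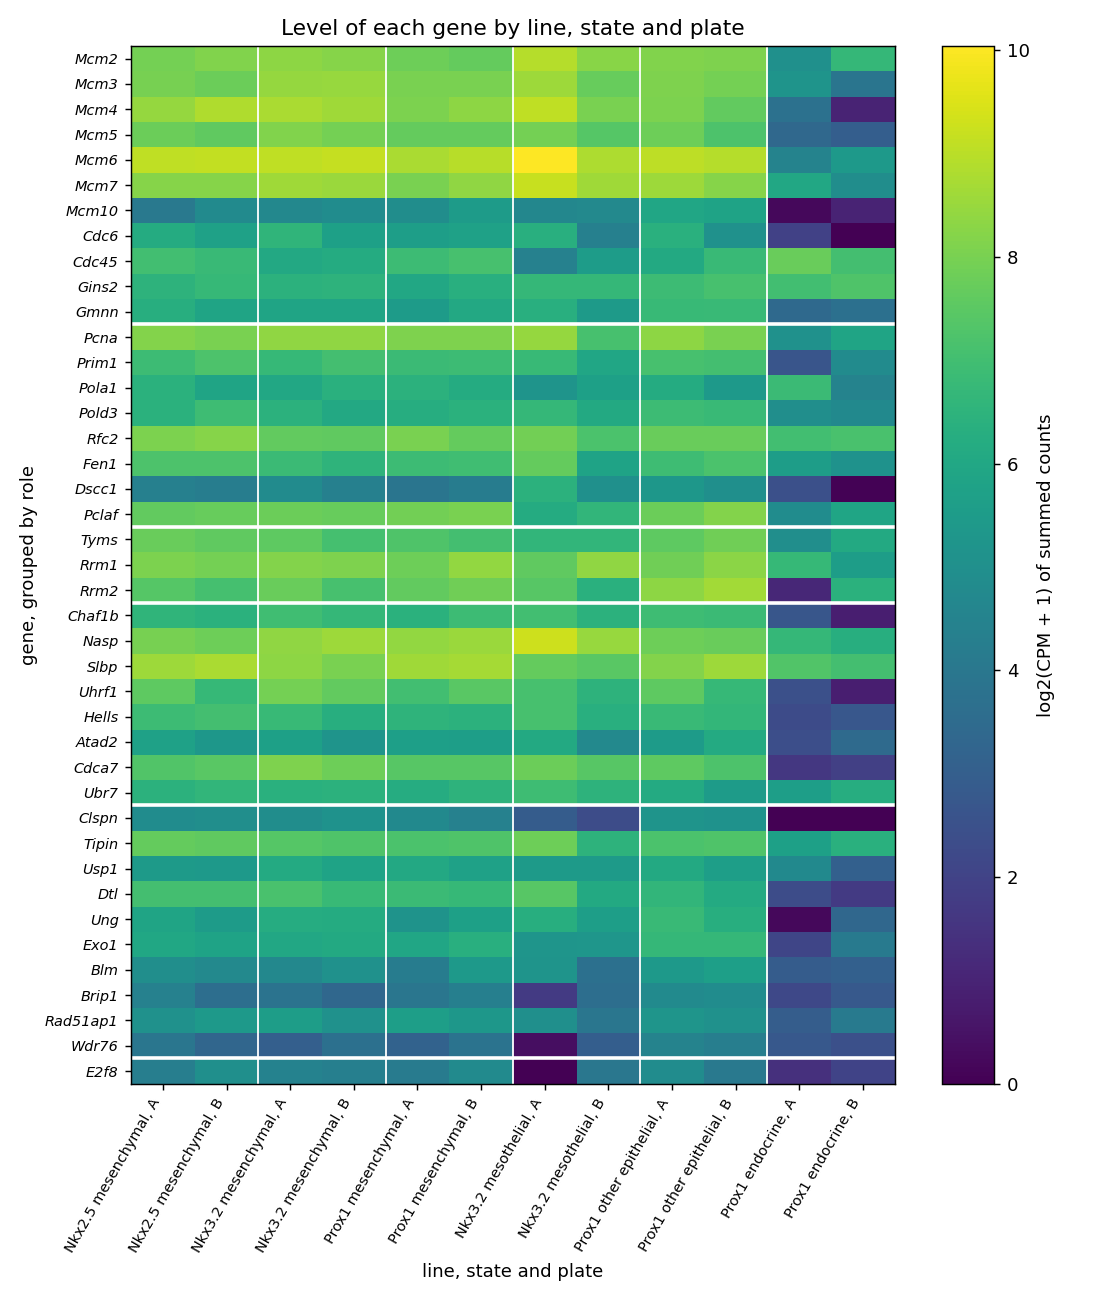
Level of each of the 41 genes (rows, ordered by role, white lines between roles) on each plate of the 6 groups of cells (columns), as log2(CPM + 1) in colour from dark (low) to bright (high). Both endocrine columns are darker for most rows, down to 0 CPM for Clspn on both plates, and stay bright for Cdc45 (212 and 129.4 CPM), Slbp, Gins2 and Rfc2.

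The endocrine and other epithelial cells come from the same Prox1 plates, and their comparison shows how the 41 genes differ between hormone-expressing cells and the rest of the epithelium. The summed level was 0.243-fold that of the other epithelial cells (0.237 on plate A and 0.251 on plate B). All 41 genes were tested and 37 were lower, against 31.9% of all 10214 genes tested in this direction. Cdc45 alone was higher, against 23.2% of all genes, and Gins2, Pola1 and Ubr7 were not called. The median log2 ratio was -2.87 over the 41 genes and -0.12 over all genes tested. Of the 37, 35 kept the call under every alternative that was run, and Rfc2 and E2f8 lost it in at least 1. Median depth was 781278 counts per endocrine and 839829 per other epithelial cell, and the median number of all genes detected was 8104 and 7614, so the endocrine cells held fewer of the 41 genes while holding more genes in all. Mesenchymal markers summed to 138.98 CPM in the endocrine cells (1 of 10 at 10 CPM or more) and to 231 CPM in the other epithelial cells (2 of 10), against 4817 CPM in the mesenchyme of the same plates, and their part in the levels was not tested. The other epithelial cells also held Neurog3 (130.6 CPM), and the part of cells with Neurog3 in the ratios was not tested.

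Of the 11 helicase and loading genes, 9 were lower, and their summed level was 507 CPM in endocrine and 2246 CPM in other epithelial cells. Mcm2 was at 31.8 and 102.1 CPM on the 2 endocrine plates and at 285 and 271 CPM on the other epithelial plates, a pooled ratio of 0.259. Mcm5 was at 9.37 and 6.97 against 224 and 149.3 CPM (ratio 0.0423), and Mcm6 at 21.6 and 40.95 against 524 and 485 CPM (ratio 0.0646). For each of these 3 helicase subunits the plates of the 2 states did not overlap. Mcm10, which helps to start the fork, was at 0.149 and 0.996 against 59.8 and 56.2 CPM (ratio 0.0109). Cdc6, the loading factor, was at 2.83 and 0 against 81.7 and 32.5 CPM (ratio 0.0205). Geminin (Gmnn) was at 9.67 and 11.95 against 107.5 and 112.04 CPM, so the inhibitor of loading was low together with the loading genes.

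Of the 8 polymerase, primase and clamp genes, 7 were lower, with sums of 377 and 1230 CPM. Pcna was at 32.7 and 57.4 CPM on the endocrine plates against 321 and 257 CPM (ratio 0.161). Rfc2, a clamp-loader subunit, was the least lowered, at 127.4 and 142.8 against 215 and 213 CPM (ratio 0.636), and was detected in 94.7% of endocrine and 95.5% of other epithelial cells at fixed depth. Rfc2 counts were rarely whole numbers (97.9% of its values above 0 lay more than 0.001 from one), and whether reads shared between transcripts give this was not tested. Fen1, the flap endonuclease, was at 47.3 and 33.98 against 119.1 and 147.2 CPM, while Tmem258, which overlaps 84.2% of its exon bases on the opposite strand, was at 255 CPM in endocrine and 136.7 CPM in other epithelial cells. Whether the counting used strand is not given in the sources used here, and without strand the reads of that overlap could not be told apart.

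All 3 nucleotide genes were lower, with sums of 171.7 and 836 CPM. Rrm2, the regulated subunit of ribonucleotide reductase, was at 1.19 CPM on plate A and 83.5 CPM on plate B of the endocrine cells, against 322 and 400 CPM (ratio 0.135, by plate 0.00369 and 0.209). Tyms, thymidylate synthase, was at 30.2 and 67.9 against 187.5 and 232 CPM (ratio 0.248), and Rrm1 at 104.7 and 46.95 against 233 and 310 CPM. The endocrine plates thus differed widely for Rrm2 and still lay under both other epithelial plates.

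Of the 8 chromatin and histone genes, 7 were lower, with sums of 316 and 1204 CPM. Uhrf1, which recruits the maintenance DNA methyltransferase to new DNA, was at 4.46 and 0.775 CPM against 189.3 and 104.7 CPM (ratio 0.0157). Hells, a chromatin remodeller, was at 3.86 and 5.57 against 111.1 and 100.1 CPM (ratio 0.0456), and Cdca7, its partner, at 2.08 and 2.77 against 184.2 and 151.3 CPM (ratio 0.0147). The histone chaperone Nasp was at 101.7 and 78.5 against 225 and 216 CPM (ratio 0.400), and Slbp at 160.3 and 130.8 against 286 and 375 CPM (ratio 0.437). Nasp and Slbp remained detected in 89.5% and 84.2% of endocrine cells at fixed depth, whereas Uhrf1 and Hells were each detected in 10.5%.

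All 10 genes of fork protection, checkpoint signalling, repair and degradation were lower, with sums of 133.1 and 653 CPM. Claspin (Clspn), the Chk1 adaptor, was at 0 CPM on both endocrine plates and at 35.5 and 33.3 CPM on the other epithelial plates. With 3 counts over the endocrine cells as the floor its ratio was at most 0.00552, and its detection in 0 of 19 cells allows a share of up to 17.6% (exact binomial). Tipin, at 51.8 and 81.95 against 145.8 and 154.5 CPM, was the least lowered of this group (ratio 0.461). E2f8, an E2F family repressor that is itself an S-phase gene, was at 1.64 and 3.10 against 28.4 and 15.8 CPM (ratio 0.110).

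Cdc45, the helicase cofactor, was at 212 CPM on plate A and 129.4 CPM on plate B of the endocrine cells, and at 68.4 and 111.3 CPM on the other epithelial plates. The pooled levels of 164.7 and 88.5 CPM gave a ratio of 1.86, with 3.10 on plate A and 1.16 on plate B. It was detected in 89.5% of endocrine and 78.4% of other epithelial cells at fixed depth. The call was lost under a stricter filter on cells (ratio 1.75, with plate B at 0.974) and without plate A (1.16). Of the Cdc45 values above 0, 87.97% were not whole numbers, and 5.96% of its exon bases overlap Ufd1 on the opposite strand, which was at 112.4 and 93.7 CPM.

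Gins2, a GINS subunit, was at 126.7 and 155.1 CPM in endocrine and 117.5 and 136.98 CPM in other epithelial cells (ratio 1.13), and Gse1, which overlaps 67.3% of its exon bases on the opposite strand, was at 29.9 and 22.1 CPM. Ubr7, a histone H2B ubiquitin ligase, was at 48.8 and 75.6 against 68.7 and 44.6 CPM (ratio 1.12). Pola1, the catalytic subunit of DNA polymerase alpha, was at 112.6 and 21.3 against 70.7 and 40.7 CPM (ratio 1.06). For Ubr7 and Pola1 the plates gave opposite directions, and for Gins2 both ratios lay between 1.08 and 1.13. Pola1 and Ubr7 hold an E2F word in the windows printed above, and Cdc45 does not.

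**Figure D3:**
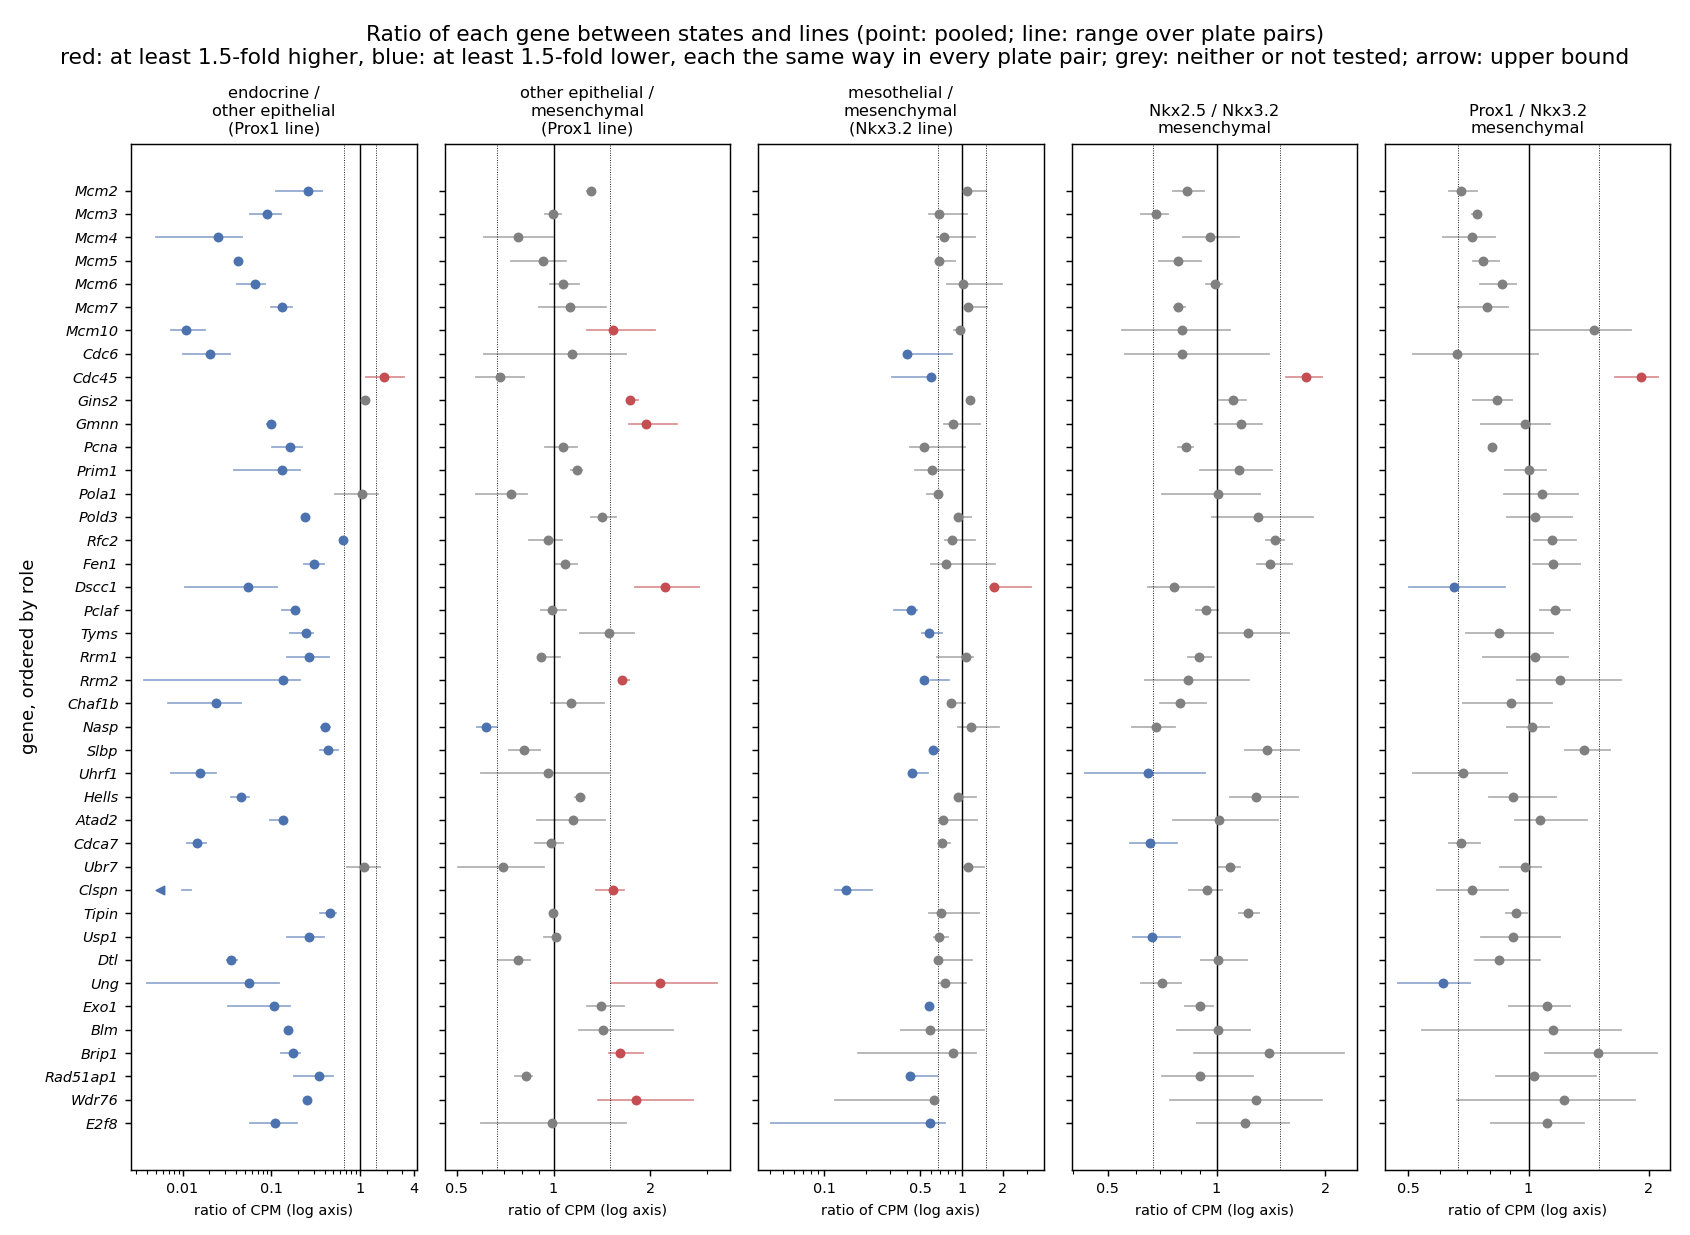
Ratio of CPM for each of the 41 genes (rows, by role) in the 5 comparisons (panels, log axes), with the pooled ratio as a point and the range over plate pairs as a line. In the endocrine panel 37 genes lie to the left of 1.5-fold lower and Cdc45 to the right, and in the other 4 panels 3 to 12 genes are coloured as higher or lower.

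The endocrine level came unevenly from its 19 cells. A pair of cells, 1 on each plate, held 3395 and 6501 CPM of the 41 genes with 33 of them detected each, together with all 40 genes of a list for G2 and mitosis (G2/M) at 17003 and 15930 CPM. The other 17 endocrine cells held 480 to 2212 CPM, with 8 to 20 of the 41 genes detected, and 64.7 to 504 CPM of the G2/M list. The pair carried 26.97% of the endocrine counts of the 41 genes and 7.94% of all endocrine counts. For 17 genes they carried most of the counts, among them Cdc6 (100%), Rrm2 (98.8%), Hells (97.4%), Gmnn (97.1%) and Pclaf (92.03%). In the other 17 cells Rfc2, Nasp and Slbp were found in all 17, Gins2 in 16 and Cdc45 in 15, before thinning, and Cdc6 and Clspn in 0. Without the pair, an alternative chosen after the data had been seen, the summed ratio was 0.193, with 37 genes lower and 1 higher as before.

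Other genes of the pathway followed. Of 57 further replication and S-phase genes, 54 were tested and 41 were lower and 0 higher in endocrine cells, with a median log2 ratio of -1.72. The loading factor Cdt1 was at 0.444 against 80.98 CPM (ratio 0.00549), the checkpoint kinase gene Chek1 had a ratio of 0.0198 and thymidine kinase, Tk1, of 0.0517. Of the 40 G2/M genes 39 were lower, with a median of -2.07, and the exception was Dlgap5 (ratio 0.928). Among the inhibitors of cyclin-dependent kinases, Cdkn1a was higher in endocrine cells (445 against 161.5 CPM, ratio 2.76), Cdkn1b was higher (42.8 against 21.3 CPM, ratio 2.01) and Cdkn1c was lower (97.4 against 222 CPM, ratio 0.438).

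The other epithelial and mesenchymal cells of the Prox1 line differed little in the summed level, with a ratio of 1.05 (1.13 on plate A and 0.989 on plate B). Of the 41 genes, 9 were higher in the epithelial cells, against 19.9% of all genes tested, and 1 was lower, against 19.5%, so the share of called genes was near or under the background. These other epithelial cells are also the reference of the endocrine comparison. Dscc1, a subunit of an alternative clamp loader, was at 39.4 and 31.2 CPM on the epithelial plates and 13.9 and 17.5 CPM on the mesenchymal plates (ratio 2.22). Ung, uracil DNA glycosylase, was at 111.2 and 76.9 against 34.4 and 51.2 CPM (ratio 2.14), and Gmnn at 107.5 and 112.04 against 44.3 and 65.1 CPM (ratio 1.93). For these 3 genes the plates of the states did not overlap.

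Wdr76 (ratio 1.80), Gins2 (1.73), Rrm2 (1.64), Brip1 (1.61), Clspn (1.53) and Mcm10 (1.53) were the other genes higher in the epithelium. Rrm2 was at 322 and 400 CPM on the epithelial against 199 and 233 CPM on the mesenchymal plates. Nasp was lower, at 225 and 216 against 338 and 374 CPM (ratio 0.615). The next lowest ratios, none of them called, were 0.680 for Cdc45, 0.695 for Ubr7, 0.737 for Pola1 and 0.774 for Dtl and Mcm4. Gins2, Gmnn, Dscc1, Rrm2, Ung and Nasp kept their calls under every alternative.

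Among the other pathway genes 4 of 54 were higher in the epithelium (Rnaseh2b 2.42, Dut 1.88 and Mcm8 1.71 among them) and 5 were lower, with Cdc7 (0.369), E2f1 (0.415) and Chek1 (0.538) among them. Of the 40 G2/M genes 5 were higher. Cdkn1a was at 161.5 CPM in the epithelial and 5.33 CPM in the mesenchymal cells (ratio 30.3), and Cdkn1c at 222 against 1201 CPM (ratio 0.185).

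Mesothelial and mesenchymal cells were compared within the Nkx3.2 line, where the summed ratio was 0.794. The plates went in opposite directions, with 1.13 on plate A, which holds 3 mesothelial cells, and 0.745 on plate B. Of 40 genes tested (Wdr76 lay under 10 CPM) 11 were lower in mesothelial cells, against 16.5% of all genes, and 1 was higher, against 13.4%. Without plate A 17 were lower and 1 higher, and without plate B 12 were lower and 5 higher. With a plate left out 1 pair of plates remains and the share of all genes called rises too. These counts therefore cannot be set against the shares above. The median log2 ratio was -0.51 over the 40 genes and 0.01 over all genes. The mesothelial cells held 7 of 10 mesenchymal markers, at 2476 CPM summed against 5607 CPM in the mesenchyme, and the part of this in the ratios was not tested.

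Claspin (Clspn) was the lowest in mesothelial cells, at 6.59 and 4.02 CPM against 29.5 and 33.98 CPM in the mesenchyme (ratio 0.144). Pclaf, a Pcna-binding protein, was at 71.6 and 96.9 against 223 and 206 CPM (ratio 0.427), and Uhrf1 at 139.05 and 90.1 against 247 and 200.1 CPM (ratio 0.434). In all 3 the mesothelial plates lay under both mesenchymal plates. Cdc6 was at 80.6 and 19.7 against 95.04 and 50.6 CPM (ratio 0.397) and Rad51ap1, a recombination protein, at 30.96 and 14.4 against 46.7 and 33.05 CPM (ratio 0.421), and in these genes the plates overlapped or nearly met. Rrm2 (0.532), Exo1 (0.574), Tyms (0.579), E2f8 (0.588), Cdc45 (0.598) and Slbp (0.614) were the other lower genes. The states were spread unequally over the plates, so a pooled ratio could lie outside the range of its plates. For Rrm2 the plates gave 0.595 to 0.802. For Hells, pooled at 0.939 and not called, they gave 1.03 to 1.28.

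Dscc1 was higher in mesothelial cells, at 87.8 and 32.3 against 27.7 and 19.96 CPM (ratio 1.72), and lost the call in at least 1 alternative. The helicase subunits Mcm2 and Mcm6, at 341 and 559 CPM in mesothelial and 314 and 551 CPM in mesenchymal cells, were not called. The highest ratios without a call were 1.16 for Nasp and Gins2, 1.12 for Ubr7 and 1.11 for Mcm7. Cdc45, Pclaf, Uhrf1, Clspn, Exo1 and Rad51ap1 kept their calls under every alternative.

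Of the other pathway genes 55 were tested, and 4 were higher in mesothelial cells (Orc1 2.73, Dut 2.01, Msh6 1.94 and Cdt1 1.87) and 14 lower, with Asf1b (0.0568), Donson (0.235) and Cenpu (0.336) the lowest. Of the 40 G2/M genes 1 was lower and 0 were higher, with a median log2 ratio of 0.44 that the plates did not share. Summed, these genes were at 651 CPM on plate A and 4520 CPM on plate B of the mesothelial cells, against 2687 and 3377 CPM in the mesenchyme, and the median cell was at 535 against 859 CPM. Cdkn1c was at 281 against 875 CPM (ratio 0.322).

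The mesenchyme of the lines was compared last, with Nkx3.2 mesenchyme as the shared reference of both comparisons. In Nkx2.5 against Nkx3.2 mesenchyme the summed ratio was 0.943 (0.915 to 0.989 over plate pairs). Cdc45 alone was higher (1 of 41, against 11.7% of all genes) and Uhrf1, Cdca7 and Usp1 were lower (3 of 41, against 13.5%). Cdc45 was at 128.4 and 112.4 CPM on the Nkx2.5 plates and 65.6 and 72.1 CPM on the Nkx3.2 plates (ratio 1.77, 1.56 to 1.96 over plate pairs), without overlap, and kept the call under every alternative. Ufd1, which overlaps Cdc45 on the opposite strand, was at 119.7 CPM in Nkx2.5, 114.8 CPM in Prox1 and 79.1 CPM in Nkx3.2 mesenchyme, and its part in the Cdc45 values was not tested.

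Uhrf1 was at 186.2 and 106.5 against 247 and 200.1 CPM (ratio 0.648), Cdca7 at 157.1 and 176.98 against 272 and 227 CPM (ratio 0.655) and Usp1, the deubiquitinase of Pcna, at 43.7 and 40.5 against 68.997 and 55.1 CPM (ratio 0.664). These 3 genes lost the call in at least 1 alternative. Next in size were Rfc2 (1.45), Fen1 (1.41), Brip1 (1.40) and Slbp (1.38) above 1 and Mcm3 (0.679) and Nasp (0.682) below 1, none of them called. Of the other pathway genes 5 of 55 were higher (Mcmbp 2.28, Pole 1.998 and Asf1b 1.84 the most) and 5 lower (E2f7 0.509, Pold1 0.545 and Chaf1a 0.628 the most), and of the 40 G2/M genes 13 were higher and 0 lower. Summed, the G2/M genes were at 3932 against 2957 CPM, whereas the median cell was at 808 against 859 CPM.

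In Prox1 against Nkx3.2 mesenchyme the summed ratio was 0.913 (0.839 to 0.992). Cdc45 alone was higher (against 9.2% of all genes), at 118.8 and 137.9 CPM on the Prox1 plates (ratio 1.91, 1.65 to 2.10), and kept the call under every alternative. Ung, at 34.4 and 51.2 against 73.02 and 71.6 CPM (ratio 0.613), and Dscc1, at 13.9 and 17.5 against 27.7 and 19.96 CPM (ratio 0.650), were lower (against 10.5%) and lost the call in at least 1 alternative. Brip1 (1.496, just under the limit), Mcm10 (1.46), Slbp (1.37) and Wdr76 (1.23) followed above 1, and Cdc6 (0.663), Mcm2 (0.676) and Cdca7 (0.677) below it, all without a call.

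Pole (2.13), E2f1 (1.96) and Mcmbp (1.77) were among 4 of 55 other pathway genes higher in Prox1 mesenchyme, and Orc1 (0.305), Rnaseh2b (0.474) and Mcm8 (0.527) among 5 that were lower. Of the 40 G2/M genes 17 were higher and 0 lower. Summed, they were at 5153 against 2957 CPM, and the median cell was at 929 against 859 CPM. Cdkn1b was at 21.3 against 4.18 CPM (ratio 5.11).

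S-phase and G2/M genes divided the cells differently by group. A cell was placed by whether it held at least 21 of the 41 genes and at least 21 of the 40 G2/M genes at fixed depth. Of 88 other epithelial cells 30 held the S-phase genes only, 41 both, 2 the G2/M genes only and 15 neither. In Nkx3.2 mesenchyme these numbers were 87, 37, 6 and 38, in Nkx2.5 mesenchyme 57, 31, 9 and 76, in Prox1 mesenchyme 24, 20, 4 and 29, and in mesothelial cells 12, 4, 0 and 7. Of 19 endocrine cells 2 held both and 17 neither. These classes are ranges of a detection score and not phases of the cycle.

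**Figure D4:**
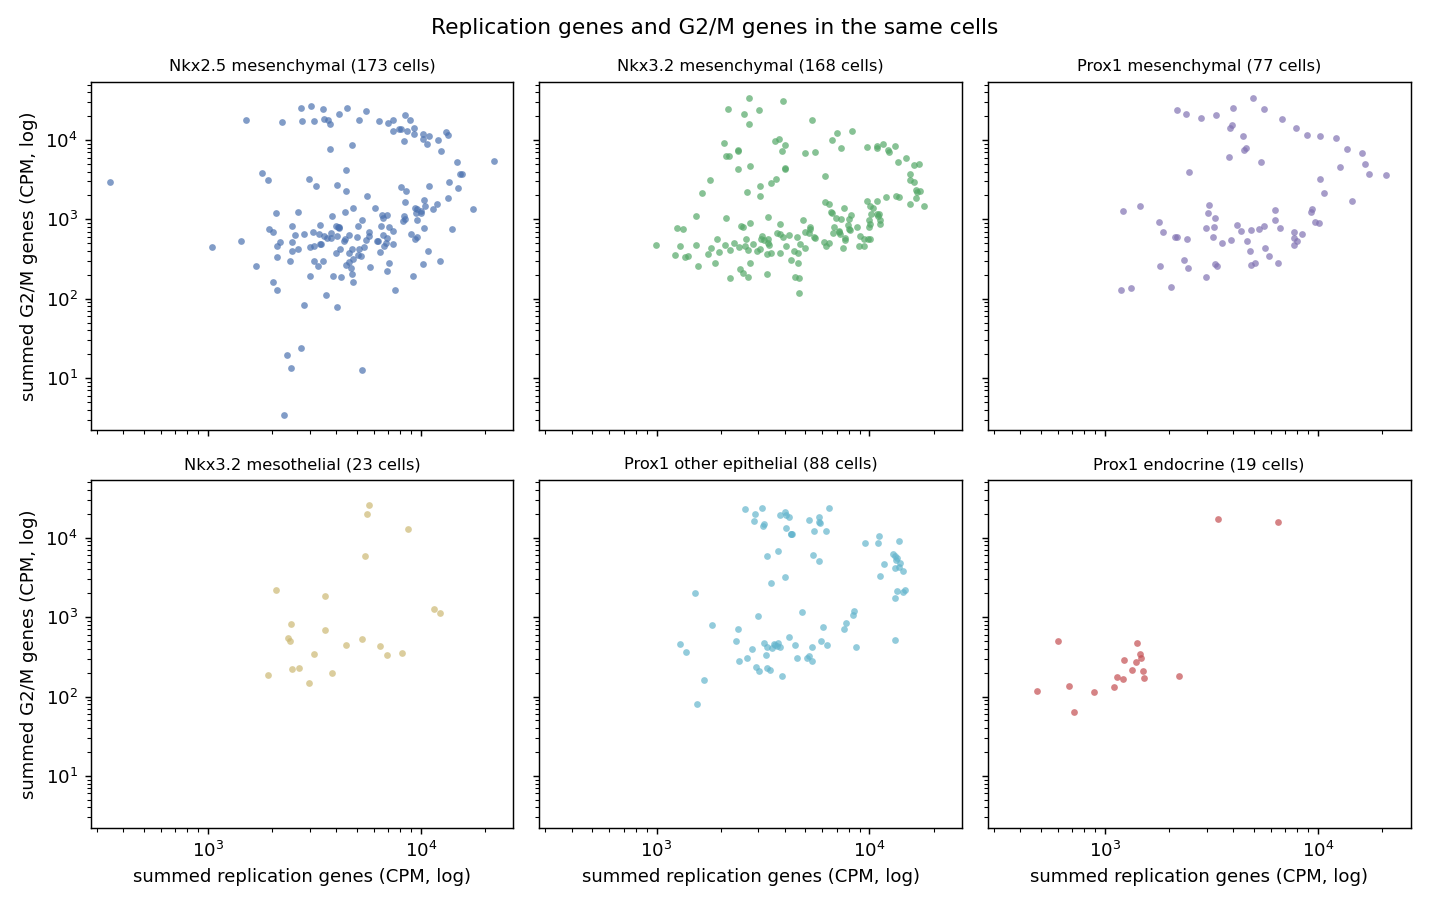
Summed level of the 41 genes (horizontal axis, CPM) against the summed level of the 40 G2/M genes (vertical axis, CPM), both on log axes, with 1 point per cell and a panel per group. In the endocrine panel 17 cells reach at most 2212 CPM of the 41 genes and 504 CPM of the G2/M genes, and 2 cells stand apart at 15930 and 17003 CPM of the G2/M genes.

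Within a state the level differed between clusters, although the 41 genes and the G2/M list had been left out of the clustering. Other genes of the cycle remained in it, so these values describe the clusters and test nothing. In Nkx3.2 mesenchyme a cluster of 28 cells was at 12191 CPM, with at least 21 of the 41 genes detected in all 28, and the other 3 clusters were at 5609, 5117 and 4726 CPM. In Nkx2.5 mesenchyme 34 cells were at 7642 CPM and the remaining 75 and 64 cells of plates A and B at 5726 CPM, and in Prox1 mesenchyme 27 cells were at 8365 CPM and 50 at 4494 CPM. The other epithelial cells fell into clusters of 37, 32 and 19 cells at 6000, 7285 and 4320 CPM. Neurog3, the factor of endocrine precursors, was at 148.7, 4.88 and 355 CPM in these 3, and Cdkn1a at 211.2, 66.5 and 250.4 CPM. In the same order 83.8%, 96.9% and 47.4% of cells held at least 21 of the 41 genes. The epithelial cluster with the most Neurog3 thus had the lowest pooled level of the 41 genes among these 3 clusters.

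Across single cells the 41 genes varied together to different degrees. For each gene, Spearman's rho between its level and the summed level of the other 40 was taken within each of the 4 groups with at least 30 cells (77 or more cells each), whose cells share library and depth differences, and was averaged. Pcna (0.70), Rrm2 (0.68) and Gmnn (0.62) followed the others most closely. Blm, a helicase of recombination (0.29), Ubr7 (0.28) and Cdc45 (0.22) followed them least. With the summed G2/M level, Pclaf (0.73), Rad51ap1 (0.47) and Rrm1 (0.46) had the highest values, and the helicase subunits Mcm6 (-0.18), Mcm4 (-0.11) and Mcm2 (-0.08) the lowest.

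**Figure D5:**
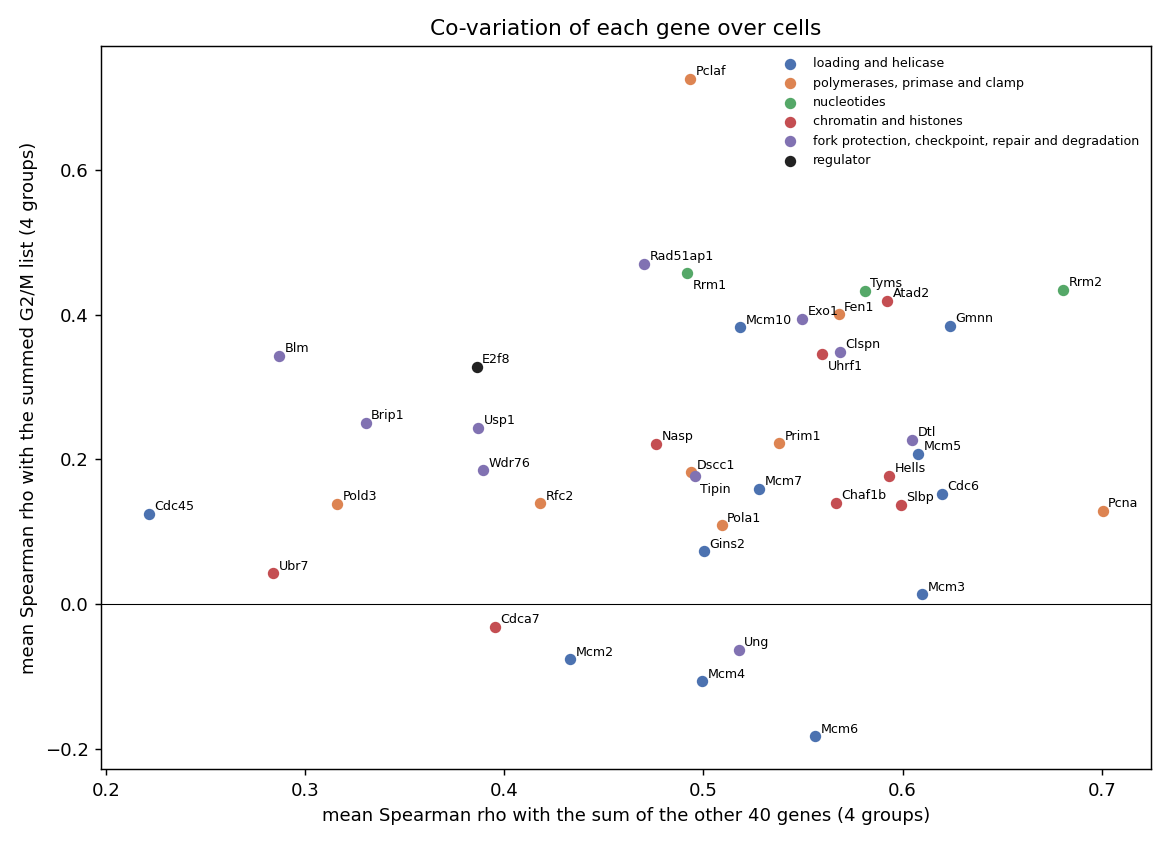
Mean Spearman's rho of each of the 41 genes with the summed level of the others (horizontal axis) and with the summed G2/M level (vertical axis), over 4 groups of cells, coloured by role. Pcna lies farthest right at 0.70, Cdc45 farthest left at 0.22, and Pclaf highest at 0.73.

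Of 8016 genes outside the lists, those whose level followed the summed level of the 41 most closely over the same 4 groups were Ranbp1 (mean rho 0.63), Dek (0.62), Fam111a (0.60), Dnajc9 (0.55), Zfp367 (0.55) and Tcf19 (0.55). The most opposed were the histone demethylase genes Kdm5b (-0.36) and Kdm6b (-0.32), and Sqstm1 (-0.31).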

How the data were processed

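Per the labels and the study's methods, the authors sorted GFP-positive cells into plates, made Smart-seq2 libraries, trimmed the reads (Trim Galore 0.6.5 in the submitters' processing notes) and quantified transcripts with kallisto on GRCm38, summed to genes. The authors deposited these values as estimated counts per gene and cell, and 34.1% of the values above 0 lay more than 0.001 from a whole number. No strand setting was given in the sources used here. The labels hold 192 Prox1 cells.

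Following the study's own limits, a cell needed 1000 detected genes and 100000 counts, and no more than 30% of its counts from mitochondria. Each line was clustered in Python 3.11.15 (scikit-learn 1.9.0, leidenalg 0.10.2), without the 41 genes and the G2/M list, and clusters were named from marker lists, so states may differ from those of the study. Per-cell scoring of the same markers gave 535 of 548 cells the same state. No doublet caller was run, since wells received sorted cells. CPM were computed from counts summed per group and plate. The fold limit was 1.5 and the floor 10 CPM. The numbers called among all genes gave the background share. Alternatives were TMM factors (edgeR 4.0.16), the mean of the CPM of single cells, thinning to 200000 or 100000 counts, a stricter filter on cells (2000 genes, 250000 counts, 10%), no floor, states per cell, each plate left out, and, chosen after seeing the data, the immune-marker cell kept and the endocrine pair left out. The comparison code was tested on simulated data. The list of 41 symbols, although its rule uses no measured value, and the other lists and rules were drawn up with earlier results of these data known. Named genes were 12 fixed members and the 5 largest ratios each way per comparison. Counts per cell ranged from 224814 to 1512736, and with 1 sample per line intervals cover counting error alone. Values of some other genes are not reported here.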

Additional observations from a re-analysis of the deposited data

How the results depend on the processing

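Of 38 alternative values of the summed ratios 29 moved by less than the spread between plates, of 86 counts of called genes 63 by at most 1.5 times, and of 18 shares of cells 15 stayed within their interval. The other 35 moved further. The spread was the standard deviation of the log2 ratio over plate pairs, which was as wide as 0.42 for mesothelial cells. Within a line the values with a plate left out also make up that spread. The 29 is therefore no independent measure of stability. The only summed ratio past 1.5-fold, for endocrine against other epithelial cells (0.243), kept its direction. Among the smaller ratios 2 crossed 1, for mesothelial cells without plate B (1.13) and for other epithelial against mesenchymal cells without plate A (0.989). Summed ratios: for endocrine against other epithelial cells the ratio was 0.262 as the mean of single-cell CPM, 0.257 after thinning and 0.193 without the pair of cells. For mesothelial cells it ranged from 0.745 to 1.13 with a plate left out. For Nkx2.5 against Nkx3.2 mesenchyme it was 0.992 as the mean of single-cell CPM, 0.991 after thinning and 0.917 to 0.986 with a plate left out, and for Prox1 against Nkx3.2 mesenchyme 0.839 to 0.992 with a plate left out.

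Counts of genes called higher: in endocrine cells 0 under the stricter filter and 1 to 2 with a plate left out. In mesothelial cells 0 with states per cell and 1 to 5 with a plate left out. In Nkx2.5 mesenchyme 2 as the mean of single-cell CPM and 3 to 7 with a plate left out. In Prox1 mesenchyme against Nkx3.2 mesenchyme 3 as the mean of single-cell CPM, 3 after thinning, 2 with states per cell and 1 to 5 with a plate left out. Counts called lower: in mesothelial cells 7 with states per cell and 12 to 17 with a plate left out. In other epithelial against mesenchymal cells 2 after thinning and 2 to 7 with a plate left out. In Nkx2.5 mesenchyme 0 both as the mean of single-cell CPM and after thinning. In Prox1 mesenchyme against Nkx3.2 mesenchyme 4 with TMM factors, 0 as the mean of single-cell CPM, 1 after thinning and 1 to 7 with a plate left out. Without thinning the share of cells with at least 21 of the 41 genes was 64.7% in Nkx2.5, 80.95% in Nkx3.2 and 72.7% in Prox1 mesenchyme. The counts of called genes above are given without the share of all genes called under the same alternative. They therefore cannot be read as above or below the background. With a plate left out 1 pair of plates remains, so the condition on agreement between plates falls away and the share of all genes called rises too. The causes of the other moves were not tested. Ratios within a line were taken from counts pooled over both plates, and their direction was compared plate by plate. No paired analysis was possible because the labels name no embryo or replicate that groups of cells could share.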
